A study of Mus musculus with 4 samples.

Results

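Resting, innervated tibialis anterior (TA) muscle of Fgf21KO mice was compared with that of WT mice. FGF21 is a secreted growth factor of the endocrine FGF group. It is made mainly by the liver, and muscle makes it under stress such as fasting or mitochondrial damage. It acts on cells that carry an FGF receptor together with the co-receptor beta-Klotho, and it is best known for adjusting sugar and fat metabolism. In this series it was studied in muscle that had lost its nerve, so sham muscle is the baseline against which that response is read.

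The series holds 4 RNA libraries of TA muscle, from WT sham, Fgf21KO sham, WT denervated and Fgf21KO denervated legs of adult male mice, taken at 14 days. Each library was made from 4 muscles pooled before sequencing, so each group is 1 library and no difference has a replicate check. The knockout was of the whole body. The sample labels describe the control leg as kept innervated, while the study's methods describe an operation on it without cutting the nerve. The methods give the WT mice as C57BL/6J and do not state the background of the Fgf21KO line, so loss of Fgf21 and a difference in strain background cannot be told apart.

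The comparison used the 2 sham libraries and kept genes whose 2 counts averaged 50 or more, which were 11052 of the 13825 genes in the count table. The other 2773 were below that level. The total count was 25249879 in WT sham and 34141303 in Fgf21KO sham, and it was 29150147 in WT denervated and 27740920 in Fgf21KO denervated. Levels are given as CPM, the count divided by the scaled library total and set to a common size, after TMM scaling within each pair of libraries, so a sham level and a denervated level come from separate scalings. The log2 ratio is Fgf21KO over WT, and its 95% interval covers counting error only. Reads copied by PCR are not independent molecules, so even that error is understated.

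The count table has no row for Fgf21, which was not analysed here, and this leaves the knockout unchecked in the RNA. The tissue and sex were. Genes of fast muscle fibres, the main fibres of TA, were abundant in both sham libraries, with 21762 CPM in WT and 19309 CPM in Fgf21KO for the fast myosin Myh1. The Y-linked genes Ddx3y, Eif2s3y, Uty and Kdm5d were present in both, with summed levels of 166.6 and 164.6 CPM, and Xist was not analysed here. Neither label was contradicted by these genes.

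The 2 sham muscles were much alike. The median log2 ratio over the tested genes was close to 0 (-0.00088), and the median absolute log2 ratio was 0.13. At least 2-fold apart, which is what is called different here unless another fold is named, were 50 genes, 0.452% of those tested. Of these, 22 were higher in Fgf21KO (0.199%) and 28 lower (0.253%). At a milder 1.5-fold, used below to describe gene lists, 156 were higher (1.41%) and 212 lower (1.92%), 3.33% in all. Higher genes made up 42.4% of the 1.5-fold calls, but 24.6% when libraries were scaled by their totals only. Most of the 2-fold genes were weakly expressed, 34 of the 50 having a mean count below 200.

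The ratios were spread more widely than counting error alone. Among genes with a mean count of 50 to 100, the robust spread of the log2 ratios was 0.41, against 0.25 for counting alone. At 500 to 1000 counts it was 0.16 against 0.079, and above 20000 counts 0.11 against 0.010. The counting interval excluded 0 in 4193 genes (37.9%), 2073 above 0 and 2120 below. Mouse pools, library preparations and genotypes differ together here, and their parts in the excess cannot be told apart. An interval that excludes 0 therefore describes the 2 libraries, not the genotypes. Of the 50 genes at 2-fold, 12 had an interval lying wholly beyond 2-fold.

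**Figure D1:**
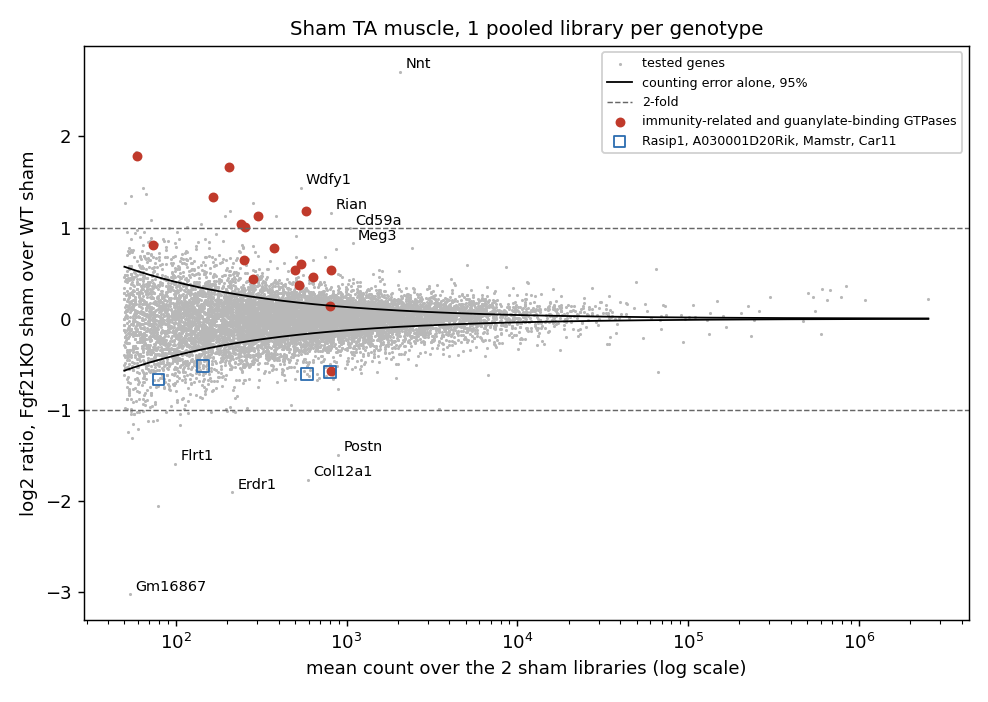
Log2 ratio of Fgf21KO sham over WT sham for each of 11052 tested genes, against the mean count over the 2 libraries on a log scale. Black lines give the range that counting error alone covers for 95% of genes, dashed lines mark 2-fold, red points are the 18 tested interferon-linked GTPases and blue squares the 4 nearest tested genes on 1 side of Fgf21. Nnt stands highest at 2.71 and Gm16867 lowest at -3.02.

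The ratios also followed the length and base composition of the transcripts. With genes split into 5 equal groups, median log2 ratios ran from 0.065 for the shortest transcripts to -0.093 for the longest, and from 0.069 for the lowest GC content to -0.071 for the highest. The 233 genes both longest and richest in GC by this split had a median of -0.25. Long, GC-rich transcripts were therefore lower in the Fgf21KO sham library as a class, and in the denervated pair the corresponding median was -0.022. Across genes, Spearman's rho with length was -0.25 in sham and 0.015 in the denervated pair, and with GC content -0.23 and -0.048. The part of this trend in the differences below was not tested. List medians are therefore also given where it matters with the median of genes of like length and GC content taken away, a correction chosen after seeing the data.

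The highest ratio belonged to Nnt, the mitochondrial enzyme that uses the proton gradient to make NADPH. Its level was 17.0 CPM in WT sham and 111 CPM in Fgf21KO sham (441 and 3699 counts), and 68.7 and 189 CPM in the denervated pair. In each pair the Fgf21KO library stood above the WT library, with log2 ratios of 2.71 (interval 2.57 to 2.86) in sham and 1.45 in denervated muscle. The C57BL/6J strain is known to carry a deletion within Nnt that many other strains lack. None of the other 18 tested genes of the mitochondrial NADPH and antioxidant list passed 1.5-fold, and the median of the list was 0.082. Sod2, the matrix superoxide dismutase and the member with the highest count, had a ratio of 0.01.

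Wdfy1, which binds a lipid of endosome membranes, had 9.25 CPM in WT sham and 25.1 CPM in Fgf21KO sham, and 350 and 998 counts in denervated muscle. Its ratios were 1.44 and 1.59. Cd59a, which shields cells from complement, had 22.7 and 45.2 CPM in sham and 21.8 and 58.1 CPM after denervation, just outside 2-fold in sham with a ratio of 0.99. Entpd4, an enzyme of the Golgi that splits nucleotides, was at 164 and 82.2 CPM in sham and 173 and 99.2 CPM in denervated muscle. For each of these genes the genotypes lay on the same sides in sham and in denervated legs. Entpd4 and Entpd4b are near copies with almost the same counts (4242 and 4244 in WT sham), so reads may be shared between them.

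The lowest ratios were those of Gm16867, a predicted gene, TrnG, a mitochondrial transfer RNA, and Erdr1. Gm16867 had 95 counts in WT sham and 13 in Fgf21KO sham, a ratio of -3.02 (-4.19 to -2.38), and 187 and 12 counts in denervated muscle. Erdr1 had 321 and 108 counts in sham and 514 and 167 in denervated muscle, ratios of -1.91 and -1.53. TrnG had 122 and 36 counts in sham and 38 and 16 in the denervated pair, ratios of -2.05 and -1.07. These 3 were the only 2-fold lower genes that were also at least 2-fold lower in the denervated pair.

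A further pair of clusters of related transcripts stood among the highest ratios. Pcdhgb7 and Pcdhga6, adhesion molecules of the gamma protocadherin cluster, had 20 and 30 counts in WT sham against 97 and 103 in Fgf21KO sham, and 17 and 50 against 75 and 134 after denervation. Their ratios were 1.83 and 1.37 in sham and 2.10 and 1.47 in the denervated pair. Transcripts of this cluster share their last exons, so reads can be split among them, and the other 6 of the 8 tested clustered protocadherins lay between -0.67 and -0.24, 2 of them past 1.5-fold (Pcdhgb2 and Pcdhb17). Rian and Meg3, long RNAs expressed from the maternal copy of 1 imprinted locus, were the other cluster. Rian had 416 counts in WT sham and 1197 in Fgf21KO sham, a ratio of 1.16 (1.01 to 1.33), and Meg3 25.6 and 45.4 CPM, a ratio of 0.83 (0.69 to 0.96). In denervated muscle their ratios were 0.25 and 0.83.

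A family of GTPases that cells make in response to interferon was prominent among the higher genes. Interferons are cytokines released on infection. They act through cell surface receptors, and interferon-gamma in particular raises the guanylate-binding proteins (Gbp genes) and the immunity-related GTPases (Irgm, Igtp, Iigp1, Tgtp and related genes), large GTPases that attack the compartments in which microbes hide. The table held 19 genes of these 2 families and 18 were tested. Of them 11 were at least 1.5-fold higher in Fgf21KO sham and 7 at least 2-fold, none was 1.5-fold lower, and the median was 0.71. This family was singled out after its values were seen.

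Iigp1 had 11.4 CPM in WT sham and 25.9 CPM in Fgf21KO sham, a ratio of 1.18 (0.99 to 1.38). Gbp2 had 9.10 and 15.6 CPM, a ratio of 0.78 (0.56 to 1.01). Gm4841, a predicted member of the family, had 3.08 and 9.93 CPM, a ratio of 1.67 (1.33 to 2.06). In each the Fgf21KO level was the higher, and the intervals did not reach 0. Gm12185 (21 and 98 counts), Gbp10 (77 and 253), Tgtp2 (159 and 447), Gbp6 (131 and 348) and Tgtp1 (142 and 367) also lay at or above 2-fold. Tgtp1 and Tgtp2, and Gbp6 and Gbp10, are close copies between which reads may be shared. The exception in direction was F830016B08Rik, with 871 and 749 counts and a ratio of -0.57 (-0.72 to -0.43), which passed 1.5-fold lower after the length and GC correction. With a mean count of at least 200, 15 members remained, 8 of them 1.5-fold higher, with a median of 0.60.

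The denervated legs showed the same order for most of the family. Its median ratio there was 0.50, 16 of the 18 were above 0 in both pairs, and 6 were at least 1.5-fold higher in both. Iigp1 had 18.2 and 39.4 CPM in denervated WT and Fgf21KO muscle, and Gbp2 7.48 and 16.1 CPM. Gm12185 had 27.7 and 30.7 CPM there, a ratio of only 0.14, and Ifi47 turned from 0.81 in sham to -0.54. The summed level of the family was 202.3 CPM in WT sham, 289.3 in Fgf21KO sham, 400.7 in WT denervated and 508.4 in Fgf21KO denervated. The study's methods place both operations, for work on gene expression, on opposite legs of 1 animal, so the denervated pair is not a second set of animals.

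**Figure D2:**
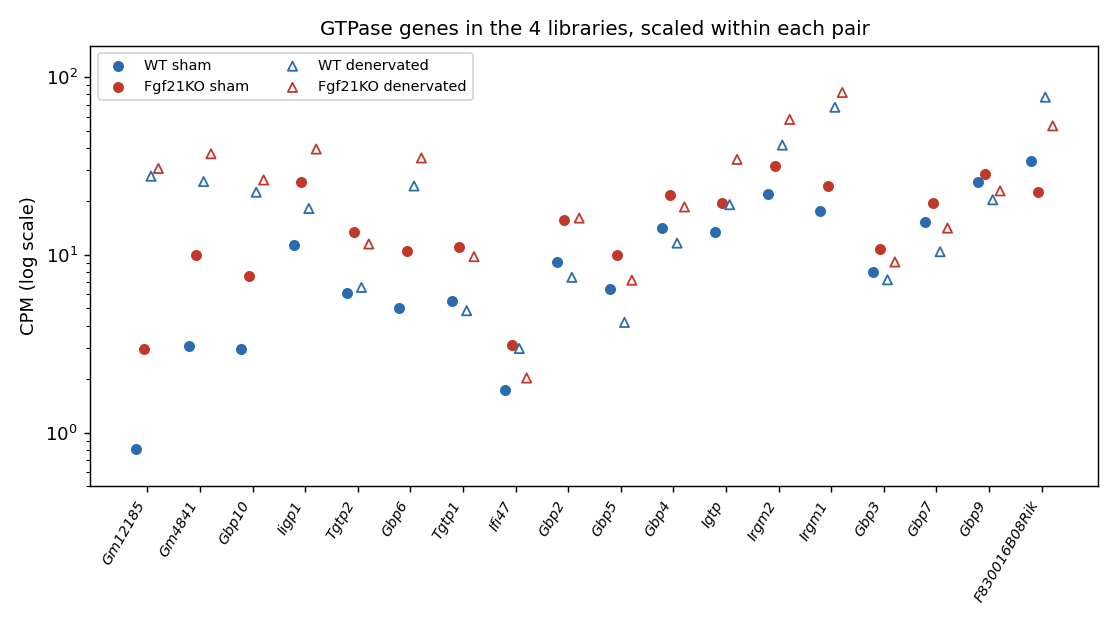
CPM on a log scale of 18 tested guanylate-binding and immunity-related GTPase genes in each of the 4 libraries, scaled within the sham pair (circles) and within the denervated pair (triangles), WT in blue and Fgf21KO in red. Fgf21KO lay above WT in both pairs for 16 genes, and F830016B08Rik was lower in both.

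The difference did not extend evenly to other interferon-induced genes. On a broader list, 36 of 43 genes were tested, 4 were at least 1.5-fold higher (Iigp1, Gbp2, Ifit3b and Ifit3), 1 was lower (Isg15), and the median was 0.23. Leaving out the 7 GTPases on it, the median of the other 29 was 0.098, with 2 higher and 1 lower. Isg15, a ubiquitin-like protein raised by type I interferon, had 59 and 44 counts and a ratio of -0.75 (-1.38 to -0.19). Ifit3, which binds viral RNA complexes, had 136 and 277 counts, a ratio of 0.66. Lower ratios, short of 1.5-fold, were those of Oas2 (-0.44), Ddx58 (-0.29) and Irf9 (-0.23). H2-D1, the member of the list with the highest count, was level, with ratios of 0.01 in sham and 0.03 in the denervated pair. Outside the list, Nlrc5, which drives class I antigen presentation genes, had 2.08 and 3.64 CPM (ratio 0.79). Socs3, a feedback inhibitor of cytokine receptors, had 3.78 and 6.53 CPM (ratio 0.78), and Il6ra, the binding subunit of the interleukin-6 receptor, had 25 and 85 counts (ratio 1.35).

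Markers of immune cells are given beside this group. Of 16 macrophage markers 15 were in the table and 7 tested. C1qc was at least 1.5-fold higher (46 and 98 counts, ratio 0.71, interval 0.21 to 1.27), none was lower, and the median was 0.17. Their summed level was 34.04 CPM in WT sham, 36.7 in Fgf21KO sham, 93.6 in WT denervated and 94.9 in Fgf21KO denervated, and Lyz2 had the highest count (275 and 370, ratio 0.07). None of 13 markers of T, B and NK cells, Cd3e, Cd8a and Nkg7 among them, was in the table, so lymphocytes were not analysed here. Of 11 neutrophil and mast cell markers, only Kit was tested, and it was past 1.5-fold lower (136 and 113 counts, ratio -0.61, or -0.57 and inside 1.5-fold after the length and GC correction). Summed macrophage RNA differed little between the sham libraries. The part of macrophages and lymphocytes in the GTPase difference was not tested.

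Many genes of this family carry known response elements for interferon-activated factors in their promoters. The promoter table of RefSeq (GRCm38.p6), which spans 250 bases before to 50 bases after the gene start, held 11 of the 19 genes. The core of the interferon-stimulated response element, the letters GAAA repeated after a gap of 2 letters on either strand, was found in 10 of the 11, all but Ifi47, and in 3.44% of all 32851 promoters (2.91% of those of tested genes). A second element, GAS (TTCNNNGAA, with N any letter), was found in 7 of the 11 and in 8.30% of all promoters (6.74% of those of tested genes). A match describes letters and not a bound site. Of the genes with the core, Gbp3, Gbp7, Igtp, Irgm1 and Irgm2 were not among those at least 1.5-fold higher. The core therefore did not set the higher members apart. The 5 genes at least 1.5-fold higher whose promoter held the core are printed over 40 bases, read along the strand of the gene, with the core in capitals. They are Gm12185 (chr11:48927233-48927272, minus strand), Tgtp1 (chr11:48992299-48992338, minus strand), Tgtp2 (chr11:49064258-49064297, minus strand), Gbp2 (chr3:142620589-142620628, plus strand) and Gbp5 (chr3:142496754-142496793, plus strand).
Gm12185: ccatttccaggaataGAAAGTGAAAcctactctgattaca
Tgtp1: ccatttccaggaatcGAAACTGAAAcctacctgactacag
Tgtp2: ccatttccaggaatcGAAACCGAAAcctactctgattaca
Gbp2: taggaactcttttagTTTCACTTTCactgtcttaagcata
Gbp5: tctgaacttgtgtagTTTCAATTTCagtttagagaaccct
The chromosome 11 genes carry it on the strand of the gene and the chromosome 3 genes on the opposite strand.

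On 1 side of the targeted locus, the 4 nearest tested genes were lower in Fgf21KO muscle. In RefSeq order on chromosome 7 (GRCm38.p6, used for order only), the tested genes that follow Fgf21 on 1 side are Rasip1, A030001D20Rik, Mamstr and Car11, and then Dbp. Rasip1, a Ras-binding protein that blood vessels need to form a lumen, had 24.6 CPM in WT sham and 16.2 CPM in Fgf21KO sham, and 13.4 and 8.33 CPM in denervated muscle. Mamstr, a coactivator of the muscle transcription factor MEF2, had 33.3 and 22.2 CPM in sham and 91.9 and 51.7 CPM in denervated muscle. Car11, a carbonic anhydrase relative without the enzyme activity, had 5.90 and 4.09 CPM, and 4.34 and 3.04 CPM. The Fgf21KO level was the lower in each pair for all of them.

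The log2 ratios in sham muscle were -0.61 for Rasip1 (-0.78 to -0.44), -0.67 for A030001D20Rik (-1.16 to -0.22), -0.58 for Mamstr (-0.73 to -0.44) and -0.52 for Car11 (-0.87 to -0.18). In the denervated pair they were -0.68, -0.46, -0.83 and -0.50. With length and GC content taken away, the sham ratios were -0.50, -0.75, -0.51 and -0.55. Of these 4, only Rasip1 was past 1.5-fold in both pairs. A030001D20Rik overlaps Rasip1, so reads of the 2 may not be separate. Dbp, the next tested gene, had ratios of 0.05 and 0.16. On the other side Bcat2, the nearest tested gene, had -0.17 and -0.15, and Plekha4 beyond it was lower in sham only, with 111 and 85 counts, a ratio of -0.73 (-1.17 to -0.32) and one of 0.06 in the denervated pair. Over the 12 nearest tested genes of each side the sham medians were -0.15 and -0.031. These genes were chosen after their values were seen, and whether the engineered allele, nearby DNA of another strain or the loss of FGF21 goes with the difference cannot be told apart in these libraries.

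**Figure D3:**
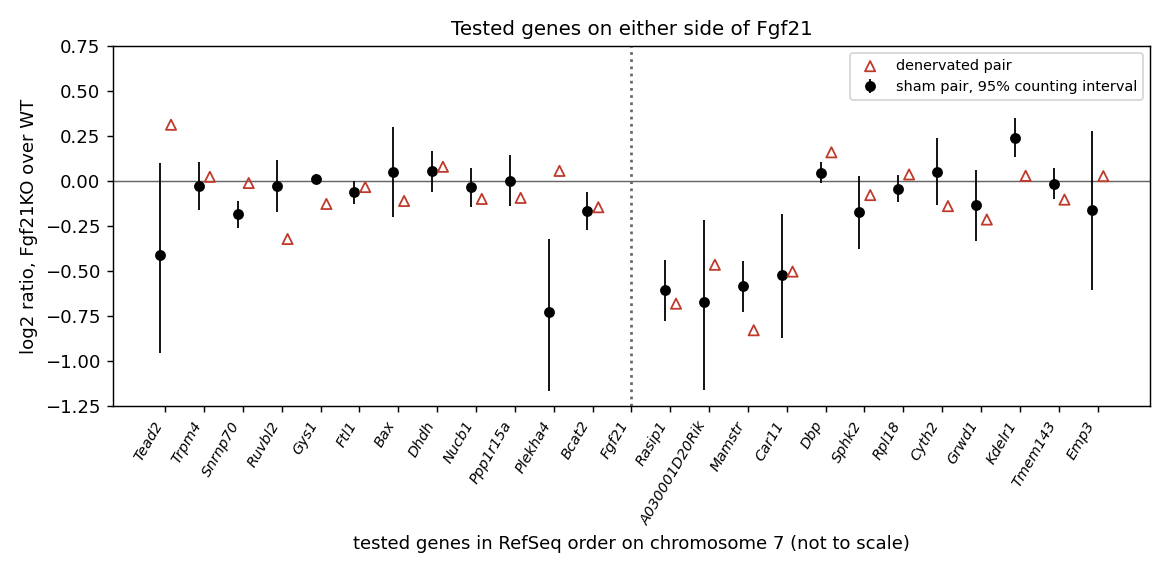
Log2 ratios of Fgf21KO over WT for the 12 nearest tested genes on each side of Fgf21 in RefSeq order, in sham muscle (black, with 95% counting intervals) and in denervated muscle (red triangles). Rasip1, A030001D20Rik, Mamstr and Car11 lay between -0.83 and -0.46 in both pairs, and Dbp beyond them lay at 0.05 and 0.16.

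Those contractile genes that are in the table differed little. Many abundant ones are not in it, and Myh2, Myh4, Acta1, Ttn, Myl1, Tnnt3, Tnnc2, Actn3, Pvalb and Mybpc1 were not analysed here. Of 18 fast fibre genes 5 were tested and none passed 1.5-fold (median 0.059, range -0.17 to 0.13). Of 27 sarcomere and Z-disc genes 11 were tested and none passed it either (median 0.024), nor did any of 11 tested genes of calcium storage and release in the sarcoplasmic reticulum (median 0.049). Medians this close to 0 carry no direction, since the first 3 turned negative with totals-only scaling. Of 18 slow fibre genes 7 were tested, with a median of -0.10, 1 past 1.5-fold higher and 1 lower. Csrp3, a Z-disc protein that senses stretch, had 58.0 CPM in WT sham and 99.6 CPM in Fgf21KO sham, a ratio of 0.78 (0.69 to 0.87), and Tnnc1, the troponin C of slow fibres, had 71 and 51 counts, a ratio of -0.81 (-1.38 to -0.30). In the denervated pair the ratios of Csrp3 and Tnnc1 were 0.21 and close to 0 (-0.0035).

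At the neuromuscular junction, the synapse that the series was about, motor nerve and muscle exchange agrin, neuregulin and acetylcholine. Of 25 listed genes 14 were tested, none was at least 1.5-fold higher, and Agrn and Erbb2 were lower. The median was -0.091, or -0.044 after the length and GC correction. Agrn, the organiser of acetylcholine receptor clusters, had 28.7 CPM in WT sham and 17.9 CPM in Fgf21KO sham, and 23.0 and 26.9 CPM in denervated muscle. Its sham ratio was -0.68 (-0.84 to -0.52), and -0.43 with length and GC content taken away. Erbb2, a neuregulin receptor, had 97 and 80 counts (ratio -0.62, interval -1.08 to -0.19, corrected to -0.49), so the correction brought both inside 1.5-fold. Utrn, a large scaffold protein of the synapse, had 49.3 and 33.6 CPM and a ratio of -0.55. Lrp4, the agrin receptor, was at 17.5 and 17.7 CPM, and Chrnb1, a subunit of the acetylcholine receptor, at 34.2 and 32.7 CPM, within counting error of each other. App, an amyloid precursor found at the synapse, had a ratio of -0.22. Chrna1, Chrnd, Chrne, Chrng, Musk, Dok7, Nefm and Sv2a were not analysed here.

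Among FGF ligands, receptors and their feedback inhibitors, 18 of 30 were tested, none was higher and 2 were lower, with a median of -0.10. The length and GC correction brought that median to -0.024, and the denervated median of the list was 0.066. Fgf11, an FGF that stays inside the cell, had 10.1 CPM in WT sham and 5.51 CPM in Fgf21KO sham, a ratio of -0.87 (-1.16 to -0.60). Spry4, an inhibitor that FGF signalling itself raises, had 6.63 and 3.79 CPM, a ratio of -0.80 (-1.15 to -0.47). Correcting for length and GC content left them at -0.84 and -0.75. Other feedback inhibitors lay on both sides of 0, Spred1, Spry1, Spry2 and Dusp6 at 0.20, 0.17, 0.11 and 0.06, and Spred2 and Il17rd both at -0.24. Fgfr1, the main receptor of FGF21, had 57.2 and 52.5 CPM (ratio -0.12), and Fgfr4 78 and 117 counts (ratio 0.22, interval -0.20 to 0.66). Klb, which encodes beta-Klotho, and Fgf13 were not analysed here. Flrt1, a membrane protein that binds FGF receptors, was among the lowest genes of all, with 140 and 58 counts in sham (ratio -1.59, interval -2.10 to -1.18) and 21 and 11 in denervated muscle (-0.75).

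A further list held class IIa histone deacetylases, MEF2 factors, AMPK subunits and the Stk11, Sik and Camk2 kinases. All 20 of its genes in the table were tested and only Hdac7 passed 1.5-fold. Hdac7 had 28.3 CPM in WT sham and 18.5 CPM in Fgf21KO sham, a ratio of -0.61 (-0.77 to -0.45), which the length and GC correction brought to -0.47, inside 1.5-fold. Hdac4, the deacetylase named in the title of the series, had 39.7 and 37.1 CPM, a ratio of -0.10 (-0.22 to 0.02), so no difference in sham muscle was detectable beyond counting error. Hdac5 had a ratio of -0.09, and the catalytic AMPK subunits Prkaa1 and Prkaa2 had ratios of 0.02 and 0.07. On a list of atrophy ligases, FoxO factors and other genes such as Sqstm1, Ctsl and Pdk4, none of 20 tested passed 1.5-fold (median 0.019). Fbxo32, the ligase atrogin-1, had 261 and 242 CPM, and Foxo1 20.2 and 21.4 CPM. Trim63 was not analysed here.

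Growth signalling outside the FGF family was also near level. None of 34 insulin, IGF1 and mTOR genes passed 1.5-fold (median -0.075, range -0.37 to 0.43), and none of 30 tested TGF-beta, activin and BMP genes did (median -0.032). The length and GC correction moved these medians to -0.026 and 0.032, so the TGF-beta median carries no direction. Tgfb1 had 191 and 190 counts, a ratio of -0.36 (-0.66 to -0.07) once the deeper Fgf21KO library was scaled, and Smad3 had a ratio of 0.07. Eif4ebp1, the translation brake that mTOR controls, had the highest ratio of the insulin list, at 0.43.

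Metabolic genes, the usual field of FGF21, showed few differences at rest. None of 33 tested glycolysis and glycogen genes passed 1.5-fold (median 0.039), none of 41 fatty acid genes (median 0.0025), and none of 26 PPAR, PGC-1 and nuclear receptor genes (median -0.024). With totals-only scaling the medians of the first 2 lists were below 0 as well, so they carry no direction. The lowest of the fatty acid list was Angptl4, an inhibitor of lipoprotein lipase (74 and 64 counts, ratio -0.55), and the lowest of the glycolysis list was Pfkfb3, which makes the activator of phosphofructokinase (384 and 306 CPM, ratio -0.33). None of 13 polyamine genes passed 1.5-fold (median 0.14), with Odc1, the first enzyme of polyamine synthesis, highest at 0.37.

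Protein-coding transcripts of the mitochondrial genome were higher as a group by a small margin, unlike the transfer RNA TrnG described above. All 13 had ratios between 0.15 and 0.40, with a median of 0.24, and none passed 1.5-fold. They made up 27.0% of counts in WT sham and 30.4% in Fgf21KO sham. With totals-only scaling the median was 0.17, and in the denervated pair it was 0.091. Nuclear-encoded subunits of the same respiratory chain had smaller medians, 0.055 for 36 complex I genes and 0.076 for 42 genes of complexes II to V. Mitochondrially encoded genes have no value corrected for length and GC content, so only uncorrected medians are set side by side. Both nuclear medians fell below 0 with totals-only scaling (-0.023 and -0.0021) and with the length and GC correction (-0.0070 and -0.0032), so they carry no direction. No measure of RNA quality was given with the series, and its part was not tested.

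Housekeeping lists lay slightly above 0, as short transcripts did in general. The medians were 0.083 for 84 tested cytosolic ribosomal proteins, 0.094 for 78 mitochondrial ribosomal proteins and 0.090 for 46 proteasome genes, and they were 0.014, 0.040 and 0.016 after the correction. Their only member past 1.5-fold was Psmg4, a proteasome assembly chaperone with 87 and 50 counts (ratio -1.12).

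Stress programmes were close to level as well. Of 23 tested integrated stress response genes, only Atf3 passed 1.5-fold (65 and 128 counts, ratio 0.61, interval 0.18 to 1.07), and the median was 0.082. None of 28 heat shock proteins (median 0.061) and none of 27 tested NRF2-linked genes (median 0.085) did. Among 24 tested immediate early genes, which respond within minutes to activity or injury, Socs3 and Atf3 were higher and Klf4 lower (10.8 and 6.77 CPM, ratio -0.67), with a median of 0.13. Jun had 70.3 and 83.1 CPM (ratio 0.24) and Fos 52 and 89 counts (ratio 0.41, interval -0.09 to 0.94). Cdkn1a, a cell cycle inhibitor, was the 1 gene past 1.5-fold among 18 p53-linked genes and again among 17 glucocorticoid-responsive genes (6.75 and 10.2 CPM, ratio 0.59). The medians of these lists were 0.064 and 0.12. The heat shock and p53-linked medians fell below 0 with totals-only scaling.

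Clock genes can show whether muscles were collected at a like time of day. None of the 5 tested clock activators and 15 repressors and output genes passed 1.5-fold, with medians of -0.0060 and 0.049, both below 0 with totals-only scaling. The strongly rhythmic Dbp and Nr1d1 had ratios of 0.05 and -0.06.

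Some genes of the extracellular matrix were much lower in Fgf21KO sham. Of 34 collagens and other fibrillar matrix genes 31 were tested, 3 were at least 2-fold lower (Col12a1, Postn and Col16a1), 1 was 1.5-fold higher (Lox), and the median was -0.26, or -0.11 after the length and GC correction. Col12a1, a collagen that coats the surface of fibrils, had 33.1 CPM in WT sham and 9.69 CPM in Fgf21KO sham, a ratio of -1.77 (-1.96 to -1.59). Postn, a matrix protein of regenerating and stretched tissue, had 47.5 and 16.8 CPM, a ratio of -1.50 (-1.65 to -1.35), and Col16a1 10.6 and 5.18 CPM, a ratio of -1.02. In denervated muscle the order was reversed, with 280 and 581 counts for Col12a1, 23.4 and 34.6 CPM for Postn and 5.33 and 7.17 CPM for Col16a1. Lox, which cross-links collagen, had 117 and 226 counts (ratio 0.59), and the correction brought it inside 1.5-fold.

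Markers of fibroblast-type cells, which make matrix, lay on both sides of 0. Of 15 markers of fibro-adipogenic progenitors 13 were tested, 2 were 1.5-fold higher (Pi16 and Lox), none was lower, and the median was 0.175. Counting intervals lay above 0 for 7 and below 0 for 3, among them Lum (-0.47, interval -0.62 to -0.32) and Col15a1 (-0.46, interval -0.59 to -0.33). Their summed level was 591.5 CPM in WT sham, 656.0 in Fgf21KO sham, 552.0 in WT denervated and 513.7 in Fgf21KO denervated, and Gsn had the highest count (ratio 0.22). Pi16, a marker of progenitors around vessels, had 149 and 305 counts in sham (ratio 0.67) and 345 and 152 in denervated muscle (-1.09). In a bulk sample, fewer cells of a type and less RNA per cell cannot be told apart. Of 9 tenocyte markers only Fmod was tested (ratio 0.17), and Tnmd and Scx were not analysed here.

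Vessel markers leaned lower in Fgf21KO sham. All 16 endothelial markers were tested and all had ratios below 0, from Egfl7 at -0.061 to Cldn5, a tight junction protein, at -0.52, with a median of -0.28 (-0.23 after the correction). None passed 1.5-fold. Their summed level was 794.7 CPM in WT sham and 651.6 CPM in Fgf21KO sham, and 452.2 and 435.4 CPM in denervated muscle. Cdh5, the cadherin of endothelial junctions and the member with the highest count, had 3696 and 3613 counts (ratio -0.39). Of 13 pericyte and smooth muscle markers 10 were tested, none passed 1.5-fold, and the median was -0.19. Rasip1, described above beside Fgf21, is an endothelial gene with a lower uncorrected ratio than any of these 16 markers. After the correction it was at -0.50, above Cldn5 at -0.55.

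Axon guidance genes, which steer growing nerves and vessels, leaned the same way. Of 49 listed genes 36 were tested, none was higher, 4 were 1.5-fold lower (Unc5b, Sema6b, Sema3f and Plxna4), and the median was -0.25, or -0.16 after the correction, which left only 1 of the 4, Unc5b at -0.60, past 1.5-fold. Unc5b, a netrin receptor of vessels and axons, had 10.3 CPM in WT sham and 5.72 CPM in Fgf21KO sham, and 6.32 and 3.44 CPM in denervated muscle, ratios of -0.85 and -0.86. The denervated median of the list was -0.086.

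Other cell types gave little. Of 18 Schwann cell and nerve markers 6 were tested, and Ngfr was higher (45 and 100 counts, ratio 0.77, interval 0.27 to 1.34), with a list median of -0.0012 and summed levels of 61.3 and 60.5 CPM. Of 17 satellite cell and myogenic markers 5 were tested and none passed 1.5-fold (median -0.040), while Pax7, Myod1 and Myog were not analysed here. The 6 tested adipocyte markers had a median of 0.042 with none past 1.5-fold. Cfd, the fat cell protease adipsin, had a ratio of -0.57, and Car3, which muscle fibres also make, 0.54. The 5 tested erythrocyte genes lay between 0.041 and 0.28 (median 0.16), and Krt10, the only tested marker of skin, had 42 and 59 counts.

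**Figure D4:**
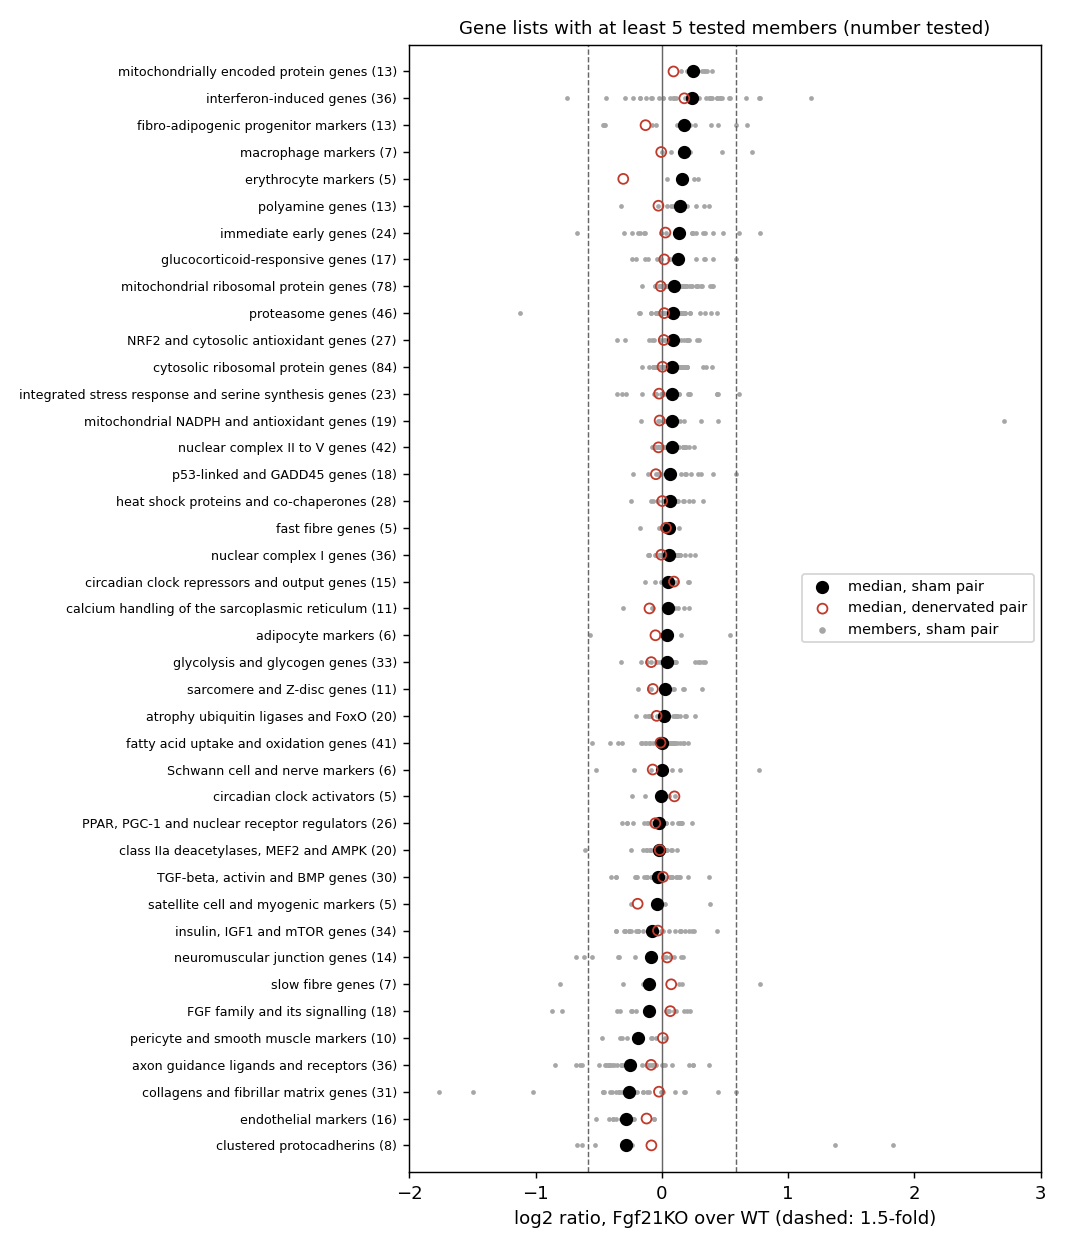
Log2 ratios of Fgf21KO over WT for gene lists with at least 5 tested members, the GTPase family left out, grey points for single members in sham muscle, black points for the sham median and open red points for the median of the same genes in denervated muscle, with dashed lines at 1.5-fold. Medians of the lists shown ran, in sham muscle, from -0.29 for clustered protocadherins to 0.24 for mitochondrially encoded genes.

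Across all genes, the ratios of the sham and denervated pairs were weakly related. Of the 22 genes 2-fold higher in sham muscle, 6 were also 2-fold higher in the denervated pair (Iigp1, Nnt, Pcdhga6, Pcdhgb7, Tgtp1 and Wdfy1), and 17 had the same sign. Of the 28 lower genes, 3 were 2-fold lower in the denervated pair, Col12a1 and Zfp185 were 2-fold higher, and 12 had the same sign. At 1.5-fold, 30 of 156 higher genes (19.2%) were higher in the denervated pair, where 1.24% of the same tested genes were, and 25 of 212 lower genes (11.8%) were lower, where 1.18% were. Opposite calls also exceeded those shares, with 9 of the 156 (5.77%) lower and 14 of the 212 (6.60%) higher in the denervated pair. Weakly counted genes pass 1.5-fold more often, 14.7% of them at a mean count of 50 to 100 in the sham pair against 0.97% at 500 to 1000. The shares over all tested genes were not matched for count, so the excess over them is overstated. Pearson's r between the 2 sets of ratios across genes was 0.16 and Spearman's rho 0.12, and r was 0.32 over the 3320 genes whose mean count reached 1000 in both pairs. The 2 pairs share no library but, by those methods, share mice, and genes are not independent replicates.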

How the data were processed

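RNA of 4 pooled TA muscles per group was sequenced from stranded mRNA libraries. The authors deposited read counts per gene, not normalized. The authors also deposited log2 values, which follow from the counts by 1 scale factor for every library and an added 1, without a length correction. The submitters' processing notes name GRCm39 and FastQC, and the aligner, the counter and whether counting used strand are not given in the sources used here. Every gene in the count table had at least 1 count in each library. The table also lacks genes known to be abundant in this muscle, and the reason is not given in the sources used here. Counts were scaled by TMM and turned into log2 CPM with a prior count of 2, with edgeR 4.0.16 under R 4.3.3. DESeq2 1.42.0 served for an alternative scaling, and scipy 1.17.1 under Python 3.11.15 for intervals and tables. At 3 counts the level was 0.116 CPM in WT sham and 0.0903 CPM in Fgf21KO sham. Intervals are exact Clopper-Pearson intervals (95%) of the share of the 2 counts. The scripts were tested on simulated data.

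Symbols were matched to RefSeq GRCm38.p6 (10919 of 11052) and to GENCODE M21 transcripts (10835), whose longest transcript gave length and GC content in 25 bins. Members and lists were chosen with earlier results of these data known. Genes named are the 15 highest and 15 lowest ratios, the 2 highest, 2 lowest and highest-count members of each list, and genes the study discusses. Others, among them the GTPases, Meg3, Cd59a, Entpd4, Zfp185, Col16a1, Utrn, Nlrc5, Sema3f, Plxna4, the neighbours of Fgf21, the interferon and FGF genes beyond that rule, and members given only for contrast, were chosen after their values were seen.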

Additional observations from a re-analysis of the deposited data

Results flagged for a closer look

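Of the genes described here, 2 of those named by rule differed by 1.5-fold or more in opposite directions in sham and denervated muscle, with counting intervals that excluded 0 in both pairs. The difference between the pairs was not tested, since each group is 1 library. For Col12a1 the log2 ratio was -1.77 in sham and 1.13 in denervated muscle (0.93 to 1.35), a difference of -2.90. For Pi16 it was 0.67 and -1.09 (-1.38 to -0.82), a difference of 1.76.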

How the results depend on the processing

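No paired analysis was possible because a group holds only 1 library, made from 4 muscles. Leaving out a library was impossible for the same reason, and a DESeq2 test could not be fitted to 1 library against 1. Against 22 genes 2-fold higher, 28 lower, 156 genes 1.5-fold higher and 212 lower, in that order, the counts were 139, 181, 530 and 645 without a filter, 105, 125, 409 and 505 when the mean count was 10 or more, 10, 5, 37 and 47 when it was 200 or more, and 12, 6, 76 and 116 with the deposited log2 values. Looser filters test more weakly counted genes and stricter ones fewer. An exact test at an assumed variation of 0.1, which compares these libraries and not the genotypes, left 12 genes 2-fold lower, 21 genes 1.5-fold higher and 18 lower, and at 0.2 it left 1, 1, 1 and 1. With a prior count of 5, 18 genes were 2-fold lower. With totals only, 45 were 2-fold lower and 337 were 1.5-fold lower, and the median of all tested genes was -0.079. The other 30 counts stayed within 1.5 times, those under DESeq2's size factors, TMM over 4 libraries and mitochondrial genes left out among them. Totals only also moved list medians by more than 0.5 of the width of a typical member's counting interval, to -0.019 for fast fibres, -0.055 for sarcomere, -0.029 for calcium handling, 0.17 for mitochondrially encoded, -0.023 for complex I, -0.0021 for complex II to V, 0.0050 for cytosolic ribosomal, -0.040 for glycolysis, -0.076 for fatty acid, -0.017 for heat shock and 0.062 for polyamine genes. The length and GC correction, chosen after seeing the data, moved them to -0.0039 for fast fibres, 0.11 for sarcomere, -0.0070 for complex I, -0.0032 for complex II to V, 0.014 for cytosolic ribosomal and -0.11 for collagen genes. Mitochondrially encoded genes moved to 0.2375 when the mean count was 200 or more, and tenocyte markers, where further members entered, to 0.048 without a filter and 0.045 at a mean count of 10. The other 493 list medians moved by less than that. Of counts of list members past 1.5-fold, 71 of the alternatives changed by over 1.5 times and 985 did not. Among log2 ratios of genes named by rule, 139 moved beyond their counting interval, 73 of them under totals only and 56 under the length and GC correction, 2276 did not, and no gene past 1.5-fold changed sign. Where a cause is not named, the cause was not tested. Depth limits what weakly expressed genes can show, since at a mean count of 50 to 100 counting error alone spreads log2 ratios by 0.25, and the spread between mice is unknown at any depth.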
